A study of Mus musculus with 29 samples.

Results

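The insulin-like growth factor (IGF) system was measured through 10 genes, chosen by symbol from the mouse gene family: the ligands Igf1 and Igf2, the receptors Igf1r and Igf2r, and the binding proteins Igfbp2, Igfbp3, Igfbp4, Igfbp5, Igfbp6 and Igfbp7. Each symbol matched 1 Ensembl identifier among the 56953 features of the count table. Of the 10 genes, 8 passed the filter on low counts. Igf2 and Igfbp2 did not pass it and are described by their counts.

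The cells were the crude stromal vascular fraction (SVF) of adult C57BL6/J mice, that is, everything but the adipocytes after digestion of fat. They came from inguinal white adipose tissue (iWAT, a subcutaneous depot) or perigonadal white adipose tissue (pgWAT, a visceral depot) of males or females. All 4 groups carried the same treatment, 4 days of culture in PM1 medium with basic fibroblast growth factor (bFGF) at 1 nM, and no group was cultured without bFGF. RNA of single culture wells was made into 29 Smart-seq3 libraries, a full-length protocol. Of these, 19 were from iWAT (10 labelled male and 9 labelled female) and 10 from pgWAT (4 labelled male and 6 labelled female). The study's text gives other group sizes than the labels, and the labels were used. The labels name wells in rows A to P. Of the plates the study describes, the library plate has these rows and the smaller culture plate does not. Well column below therefore means a position on the library plate, and the labels do not give the position in culture. By the study's text the wells are technical replicates of only a few independent experiments, fewer for pgWAT than for iWAT. The labels do not tie a well to an experiment or an animal. All p-values therefore measure the spread between wells and not between experiments. However small, they do not show that a difference would recur in another experiment. Crude SVF is a mixture, so fewer cells of a type and less RNA per cell cannot be told apart in any value below.

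IGF1 and IGF2 are secreted growth factors that signal mainly through the tyrosine kinase receptor IGF1R, while IGF2R clears IGF2 from the cell surface and sorts lysosomal enzymes. IGF binding proteins hold most of the extracellular ligand, and they lengthen its life, keep it from the receptor or release it when proteases cut them. In fat, IGF1 made by stromal and immune cells acts on preadipocytes, and growth hormone is a known inducer of Igf1.

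Total counts ranged from 315316 to 1102234 per library, so that 3 counts, the limit taken for a count of 0, corresponded to between 2.72 and 9.51 CPM (counts scaled to library size). Levels are CPM on totals scaled by TMM factors, and ± is the SD between libraries. The X-inactivation transcript Xist and Y-linked transcripts (Kdm5d, Uty, Eif2s3y and Ddx3y) met the label in 24 libraries. They went against it in the libraries labelled pgWAT male 2, pgWAT male 4, pgWAT female 2 and pgWAT female 3, and met it in part in the library labelled pgWAT female 1, which held both kinds of transcript. Calls of the IGF genes listed above that rest on these libraries are given with and without them. Calls of marker genes and of genes of the wider pathway, H19 among them, are given with them only. Of the defining markers, fibroblast genes summed to between 6387 and 22688 CPM and macrophage genes to between 650 and 8067 CPM, so both kinds of transcript were present in every library. Adipocyte markers stayed at or below 43.0 CPM.

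Igf1 and 3 of the binding protein genes were higher in pgWAT, and Igfbp5 was lower. Between pgWAT and iWAT, with both labelled sexes weighted equally, 5 of the 8 genes tested passed an FDR of 0.05 in edgeR's quasi-likelihood test. Over all 8853 genes tested, 38.1% passed it. Igfbp3, Igfbp4, Igf1 and Igfbp7 were higher in pgWAT, in a table where 20.1% of genes were higher, and Igfbp5 was lower, in a table where 17.9% were lower. The median log2 fold change of the 8 genes was 0.71, beside 0.01 over all genes tested. Both receptors and Igfbp6 did not pass the test.

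**Figure D1:**
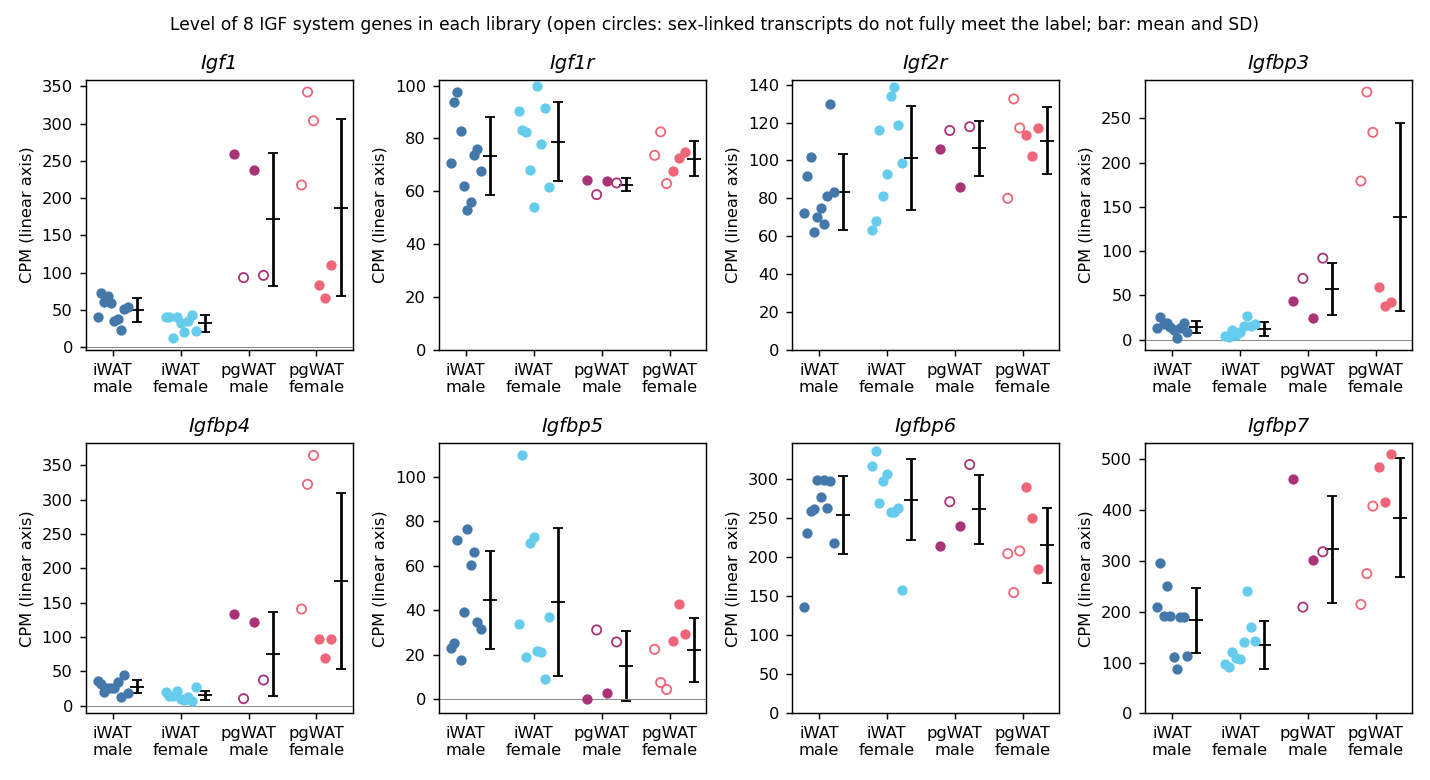
Level (CPM, linear axes) of the 8 genes tested, 1 point per library in each of the 4 groups, with the group mean and SD as a bar. Open circles are the 5 pgWAT libraries whose sex-linked transcripts went against the label or met it in part. Igf1, Igfbp3, Igfbp4 and Igfbp7 lay higher in pgWAT, and the receptors Igf1r and Igf2r overlapped between all groups.

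Among the ligands, Igf1 (ENSMUSG00000020053.19) was 22.8, 52.4 and 72.4 CPM (lowest, median, highest) in iWAT male and 12.7, 34.7 and 43.0 CPM in iWAT female libraries. The 4 libraries labelled pgWAT male held 259, 93.3, 237 and 96.4 CPM, and those labelled pgWAT female held 66.7 CPM at the lowest, 164 at the median and 342 at the highest. In 9 of the 10 pgWAT libraries Igf1 was above all 19 iWAT libraries, and the tenth, pgWAT female 5, lay above 17 of them. The mean was 41.5 ± 16.3 CPM in iWAT (n = 19) and 181 ± 102 CPM in pgWAT (n = 10), a log2 fold change of 2.13 (SE 0.22, edgeR FDR 2.80e-09). Without the 5 pgWAT libraries named above it was 1.81 (edgeR FDR 3.08e-09).

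Igf2 (ENSMUSG00000048583.17), the fetal growth factor of an imprinted locus, was close to absent at this depth. It had 57 counts over the 19 iWAT libraries and 5 counts over the 10 pgWAT libraries. The pooled level was 4.52 CPM in iWAT and 0.879 CPM in pgWAT, a ratio of 5.14 with an exact 95% interval of 2.08 to 16.4 that covers counting error only. The counts did not come from all wells. Of the 57 counts, 44 lay in the 4 iWAT female libraries from well column 7, whose levels were 4.04, 18.5, 16.7 and 12.9 CPM, while the 5 iWAT female libraries from the other columns had 0 counts. Pooled, the column 7 wells of iWAT female were at least 14.9-fold higher than a limit of 3 counts over the others allows. In iWAT male the counts did not follow column 7, with 1.67 ± 2.95 CPM in its 7 wells, of which number 5 was highest at 8.06 CPM, and 2.44 ± 1.60 CPM in the 3 wells of column 9. Without a filter on low counts edgeR gave a log2 fold change of -1.94 between the depots (SE 0.72, FDR 0.0575) and of -2.91 between the female groups (SE 0.97, FDR 0.0389), both on few counts.

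H19, the noncoding RNA expressed from the other parental copy of the same locus, was tested and followed the same wells. It was 306, 862, 766 and 717 CPM in the column 7 libraries of iWAT female and between 111 and 299.5 CPM in the other 5. In pgWAT it did not exceed 67.4 CPM. Between the depots H19 fell by 3.18 on the log2 scale (SE 0.43, edgeR FDR 3.14e-07), and in iWAT it was lower in male than in female libraries (log2 fold change -1.87, SE 0.38, edgeR FDR 0.00322). Epithelial markers summed to between 108 and 164 CPM in the column 7 libraries of iWAT female and to between 36.2 and 1831 CPM in the other 5, and were at or below 8.31 CPM in iWAT male. Well column, experiment and dissection cannot be told apart from the labels. In the annotation used here 61.9% of the 31-base words of Igf2 also occur in other genes (Gm49394, Slc1a2 or Cux1), and Gm49394 had 1 count in all 29 libraries.

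**Figure D2:**
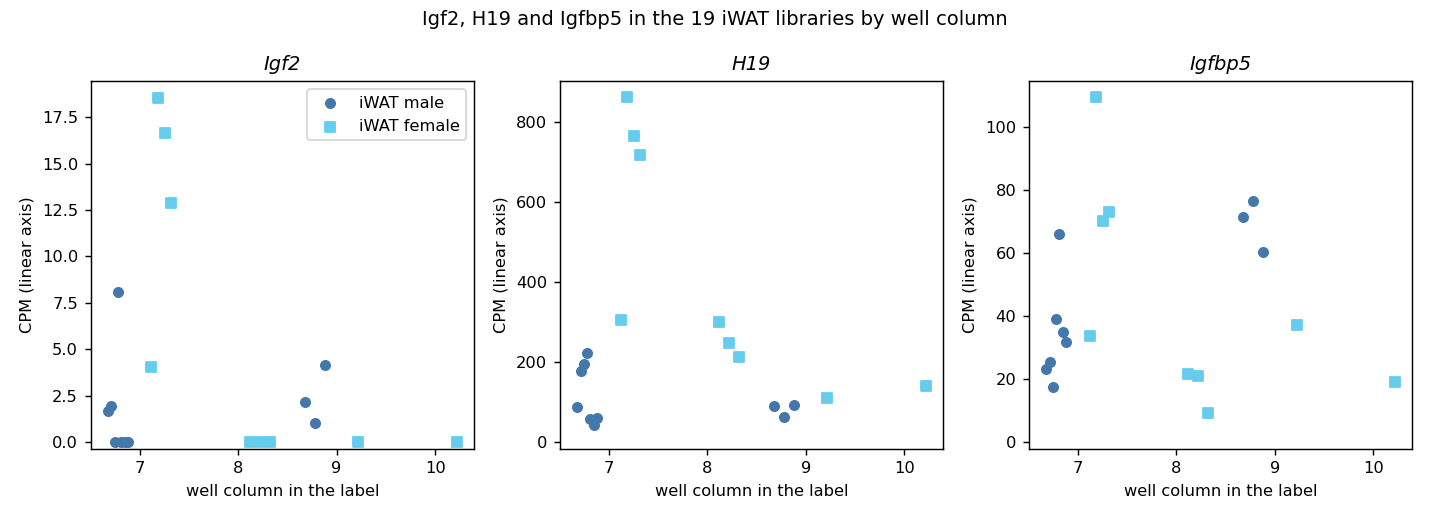
Level (CPM, linear axes) of Igf2, H19 and Igfbp5 in the 19 iWAT libraries against the well column given in the label, with circles for male and squares for female libraries. Igf2 and H19 were highest in the iWAT female wells of column 7, and Igf2 had 0 counts in the iWAT female wells of columns 8, 9 and 10.

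Neither receptor was called between the depots. Igf1r (ENSMUSG00000005533.11), the signalling receptor, was 52.8, 72.2 and 97.4 CPM in iWAT male and 54.1, 82.3 and 99.8 CPM in iWAT female libraries. It was 64.2, 58.8, 63.9 and 63.2 CPM in the 4 libraries labelled pgWAT male and 62.9, 73.1 and 82.5 CPM in pgWAT female. The groups overlapped, and the pgWAT libraries all fell within the iWAT range. The depot difference was -0.17 on the log2 scale with a 95% interval of -0.39 to 0.05 (edgeR FDR 0.232). No change was detected, and the interval still holds a log2 difference of -0.39.

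Igf2r (ENSMUSG00000023830.15), the cation-independent mannose 6-phosphate receptor, was 62.5, 77.9 and 130 CPM in iWAT male and 63.3, 98.7 and 139 CPM in iWAT female libraries. In pgWAT it was 106, 116, 86.1 and 118 CPM in the libraries labelled male and 80.0, 115 and 132 CPM in those labelled female. All pgWAT libraries lay inside the iWAT range. The depot difference was 0.25 on the log2 scale, with a 95% interval of -0.00 to 0.51 (edgeR FDR 0.113).

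The sequences before the start sites of the genes that differed between the depots are shown to set the higher ones beside the lower one. They are the bases before the RefSeq start site in the table for GRCm38.p6, which listed all 10 genes, cut to the part that no annotated exon covers and read 5′ to 3′ on the gene's strand. Capitals mark matches on either strand to any of 5 motifs. These were the core promoter motif TATAAA, the motif CCAAT that the factor NF-Y is known to bind, the SP1 motif GGGCGG, the forkhead factor motif GTAAACA and the STAT factor motif TTCNNNGAA. The shown part is chr11:7213924-7214123 (minus strand) for Igfbp3, chr11:99041044-99041243 (plus strand) for Igfbp4, chr5:77408046-77408245 (minus strand) for Igfbp7 and chr1:72874885-72875065 (minus strand) for Igfbp5. The 200 bases before the Igf1 start site of the table lie inside annotated exons of longer Igf1 transcripts and are not shown.
Igfbp3: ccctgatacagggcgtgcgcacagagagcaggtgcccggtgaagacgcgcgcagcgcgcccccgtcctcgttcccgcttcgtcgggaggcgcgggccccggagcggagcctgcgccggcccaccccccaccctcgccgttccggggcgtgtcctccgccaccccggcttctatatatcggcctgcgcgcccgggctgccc
Igfbp4: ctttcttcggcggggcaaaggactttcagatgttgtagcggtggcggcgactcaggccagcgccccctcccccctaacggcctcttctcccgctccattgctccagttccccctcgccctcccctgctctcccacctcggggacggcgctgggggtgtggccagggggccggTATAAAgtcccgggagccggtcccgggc
Igfbp7: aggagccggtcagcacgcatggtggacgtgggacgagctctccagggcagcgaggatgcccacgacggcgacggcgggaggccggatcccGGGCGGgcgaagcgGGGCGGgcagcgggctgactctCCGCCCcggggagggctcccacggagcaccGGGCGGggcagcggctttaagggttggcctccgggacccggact
Igfbp5: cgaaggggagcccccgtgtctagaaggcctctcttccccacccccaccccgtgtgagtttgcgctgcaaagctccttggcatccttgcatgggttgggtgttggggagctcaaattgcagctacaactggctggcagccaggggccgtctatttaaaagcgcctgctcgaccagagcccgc
Of the 4 windows, Igfbp4 held 1 TATAAA and Igfbp7 held 4 GGGCGG, and Igfbp3 and Igfbp5 held no exact match to any of the 5 motifs. Variants of the motifs were not sought, so a window without TATAAA may still hold a related sequence. Of 32851 mouse promoters in the table, read from 250 bases before to 50 bases after the start, 13.6% held TATAAA, 35.7% GGGCGG, 37.4% CCAAT, 3.65% GTAAACA and 8.30% TTCNNNGAA. The GC content was 76% for Igfbp3, 75.5% for Igfbp7, 69.5% for Igfbp4 and 61.3% for Igfbp5, beside a median of 53% over the 200 bases before all start sites. No motif among the 5 was shared between the shown windows of Igfbp3, Igfbp4 and Igfbp7. Igf1, also higher in pgWAT, has no window here. The shown windows are shorter than the stretches behind the percentages.

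Among the binding proteins, Igfbp3 (ENSMUSG00000020427.12), the main IGF carrier of serum, was higher in pgWAT. It was 2.08, 13.5 and 25.4 CPM in iWAT male and 3.09, 10.5 and 27.3 CPM in iWAT female libraries. The libraries labelled pgWAT male held 43.4, 69.1, 25.0 and 92.1 CPM, and those labelled pgWAT female held 179, 280, 234, 59.5, 38.5 and 42.3 CPM. In 9 of 10 pgWAT libraries Igfbp3 exceeded every iWAT library. The log2 fold change was 2.77 (SE 0.31, edgeR FDR 8.58e-09). It was 1.60 (edgeR FDR 0.000173) without the 5 libraries named above, since the 3 highest, all pgWAT female libraries from well column 10, were among them. Summed fibroblast markers were also highest in those 3 libraries, between 19694 and 22688 CPM against 11687 to 18828 CPM in the other 7. Their part in the difference was not tested.

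Igfbp4 (ENSMUSG00000017493.13), a carrier that keeps IGFs from their receptor until it is cleaved, was 12.7, 26.3 and 44.4 CPM in iWAT male and 6.78, 13.9 and 27.1 CPM in iWAT female libraries. In pgWAT the libraries labelled male held 134, 10.4, 122 and 37.5 CPM and those labelled female 141, 322, 365, 96.8, 69.6 and 97.6 CPM. In 8 of 10 pgWAT libraries Igfbp4 exceeded every iWAT library. The libraries labelled pgWAT male 2 and 4 lay inside the iWAT range, and pgWAT male 2 was below the iWAT mean. The log2 fold change between the depots was 2.55 (SE 0.28, edgeR FDR 8.70e-09), and 2.39 (edgeR FDR 2.26e-11) without the 5 libraries. Within the annotation used here 5.79% of the 31-base words of Igfbp4 occur in other genes.

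Igfbp7 (ENSMUSG00000036256.14), a matrix protein related to the family that binds IGFs weakly, was 87.2, 191 and 295 CPM in iWAT male and 91.1, 120 and 242 CPM in iWAT female libraries. It was 462, 209, 301 and 318 CPM in the libraries labelled pgWAT male and 214, 412 and 511 CPM in those labelled pgWAT female. In 7 of 10 pgWAT libraries it exceeded all iWAT libraries. Its log2 fold change was 1.17 (SE 0.17, edgeR FDR 1.27e-06), and 1.41 (edgeR FDR 9.66e-07) without the 5 libraries.

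Igfbp5 (ENSMUSG00000026185.9), a binding protein that attaches to the extracellular matrix, went the other way. It was 17.4, 37.0 and 76.7 CPM in iWAT male and 9.05, 33.7 and 110 CPM in iWAT female libraries. The libraries labelled pgWAT male held 0, 31.1, 2.78 and 25.7 CPM and those labelled pgWAT female 22.4, 7.498, 4.34, 26.3, 43.0 and 29.3 CPM. All 10 pgWAT libraries were below the iWAT mean of 44.2 CPM, which itself lay above the iWAT median of 34.9 CPM. Of the pgWAT libraries 1 was above that median and 4 were below all iWAT libraries. The depots overlapped, with 9.05 to 110 CPM in iWAT and 0 to 43.0 CPM in pgWAT. The depot difference was -1.23 on the log2 scale (SE 0.39, edgeR FDR 0.0130). It was -2.57 (edgeR FDR 0.00339) without the 5 libraries. That value rests on pgWAT male 1 and 3, at 0 and 2.78 CPM and both below the limit of 3 counts. The remaining pgWAT female libraries averaged 32.8 ± 8.90 CPM (n = 3), beside 43.8 ± 33.3 CPM in iWAT female (n = 9). With well column as a further factor the depot difference was -0.48 and not called (edgeR FDR 0.316).

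The levels of Igf2r, Igfbp3, Igfbp5, Igfbp6 and Igfbp7 in iWAT female did not overlap between well columns 7 (n = 4) and 8 (n = 3). The share of all genes without overlap there was not worked out. Whether these genes differ from genes at large in this cannot be said. They were 63.3 to 92.8 against 119 to 139 CPM for Igf2r and 3.09 to 8.59 against 15.8 to 27.3 CPM for Igfbp3. For Igfbp6 they were 298 to 337 against 258 to 263 CPM, and for Igfbp7 91.1 to 108 against 140 to 242 CPM. For Igfbp5 they were 33.7 to 110 against 9.05 to 21.6 CPM. The ranges of Igf1, Igf1r and Igfbp4 overlapped there. The levels of Igfbp5 in iWAT also followed the wells. In iWAT female it averaged 71.7 ± 31.02 CPM in column 7 (n = 4) and 17.2 ± 7.08 CPM in column 8 (n = 3). In iWAT male the order of columns was different, with 33.9 ± 15.9 CPM in column 7 (n = 7) and 69.4 ± 8.39 CPM in column 9 (n = 3). Only columns 7 and 9 held iWAT wells of both sexes, and column 9 held 1 iWAT female well, at 37.0 CPM. Whether a column was high in both sexes rests on that single well and cannot be decided.

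Igfbp6 (ENSMUSG00000023046.7), which prefers IGF2 over IGF1, had the highest level per length of the 10 genes in iWAT and no depot difference that passed the test. It was 137, 263 and 299 CPM in iWAT male and 158, 270 and 337 CPM in iWAT female libraries. It was 215, 271, 240 and 319 CPM in the libraries labelled pgWAT male and 155, 207 and 290 CPM in those labelled pgWAT female. All groups overlapped, and the depot difference was -0.14 on the log2 scale with a 95% interval of -0.38 to 0.10 (edgeR FDR 0.359).

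Igfbp2 (ENSMUSG00000039323.19), a binding protein known from adipocytes and liver, had a single count in the 29 libraries, in the library labelled pgWAT female 2. Igfbp1, the liver form, had 0 counts in all of them. Both were not detectable above the limit of 3 counts per library.

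Markers of several cell types moved with the depot contrast. Of the 7 macrophage markers tested, 5 were higher in pgWAT, and none of the 8 listed was at 0 in any group. Their sum was between 650 and 2513 CPM in iWAT and between 757 and 8067 CPM in pgWAT, with the highest values in pgWAT male 1 and 3. Summed fibroblast markers ranged from 6387 to 12199 CPM in iWAT and from 11687 to 22688 CPM in pgWAT, with 5 of 6 called higher. Mesothelial markers summed to between 1.96 and 98.7 CPM in iWAT and to between 48.6 and 147 CPM in pgWAT, and Wt1 and Upk3b were higher and Krt19 lower among the 3 tested. Smooth muscle markers summed to between 572 and 3573 CPM in iWAT and between 1185 and 3028 CPM in pgWAT (2 of 3 tested were higher). Lymphatic endothelial markers (Lyve1, Prox1 and Pdpn) summed to between 417 and 1287 CPM in iWAT and between 929 and 1606 CPM in pgWAT. Of these, the 1 tested, Pdpn, was higher, while Prox1 was at 0 counts in every library labelled pgWAT male. Pericyte markers, of which 0 were tested, went the other way, with 13.1 to 45.0 CPM in iWAT and 0 to 25.9 CPM in pgWAT. Of 6 proliferation markers 5 were lower in pgWAT. The study describes markers of macrophages, pericytes, endothelial and vascular smooth muscle cells as low in these cultures. A sum over a list does not show that cells of the named type were present, and which cells held these transcripts was not tested. The part of cell makeup in the IGF gene differences was not tested either.

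In the libraries labelled pgWAT female 4, 5 and 6, macrophage markers summed to 783, 757 and 843 CPM, inside the iWAT female range of 650 to 1129 CPM. Igf1 was 83.0, 66.7 and 111 CPM there, against at most 43.0 CPM in iWAT female and 72.4 CPM in iWAT male. Igfbp4 was 96.8, 69.6 and 97.6 CPM, against at most 27.1 CPM in iWAT female and 44.4 CPM in iWAT male. The same 3 libraries held the highest mesothelial sums of all, 147, 132 and 143 CPM.

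Well column 8 held 3 libraries of each female group, and there the same 4 genes differed between the depots. The share of all genes called is given for the main fit only, not for this column. In that column alone the log2 fold changes were 3.24 for Igfbp4 (edgeR FDR 6.28e-08), 1.35 for Igfbp7 (edgeR FDR 7.63e-06), 1.34 for Igf1 (edgeR FDR 0.000869) and 1.27 for Igfbp3 (edgeR FDR 0.00552). Igfbp5 was 0.94 higher in the pgWAT wells of this column and did not pass the test (edgeR FDR 0.0898). The sign of the Igfbp5 estimate thus depended on which female wells were compared, and it was called in neither female comparison.

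Within each labelled sex, 4 of the 8 genes were called between the depots, Igf1, Igfbp3, Igfbp4 and Igfbp7, and all 4 were higher in pgWAT. In males the log2 fold changes were 2.03 for Igfbp3, 1.76 for Igf1, 1.45 for Igfbp4 and 0.82 for Igfbp7, where 20.3% of all genes were called. The male call of Igfbp4 was lost in limma-voom (edgeR FDR 0.0116, limma-voom FDR 0.174) and without pgWAT male 1 (edgeR FDR 0.0971) or 3 (edgeR FDR 0.0937). The male call of Igfbp7 was lost without pgWAT male 1 (edgeR FDR 0.117) or 4 (edgeR FDR 0.0527). In females they were 3.65 for Igfbp4, 3.51 for Igfbp3, 2.50 for Igf1 and 1.51 for Igfbp7, where 26.8% of all genes were called. Both contrasts contain libraries that went against their label. Without those libraries the female differences were 2.60 for Igfbp4 (edgeR FDR 9.98e-09), 1.98 for Igfbp3 (edgeR FDR 0.000374), 1.36 for Igf1 (edgeR FDR 0.000281) and 1.79 for Igfbp7 (edgeR FDR 2.27e-06), so those of Igf1, Igfbp3 and Igfbp4 were smaller and still called. Between the male groups they were 2.27 for Igf1, 2.19 for Igfbp4 and 1.03 for Igfbp7, all called, while Igfbp3 was not called (log2 fold change 1.23, edgeR FDR 0.0981), and Igfbp5 was called lower in pgWAT male (edgeR FDR 0.00483), where the 2 remaining libraries held 0 and 2.78 CPM. In well column 9, where both pgWAT male libraries went against the label, the log2 difference of Igfbp4 from iWAT male was -0.06 (edgeR FDR 0.943).

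**Figure D3:**
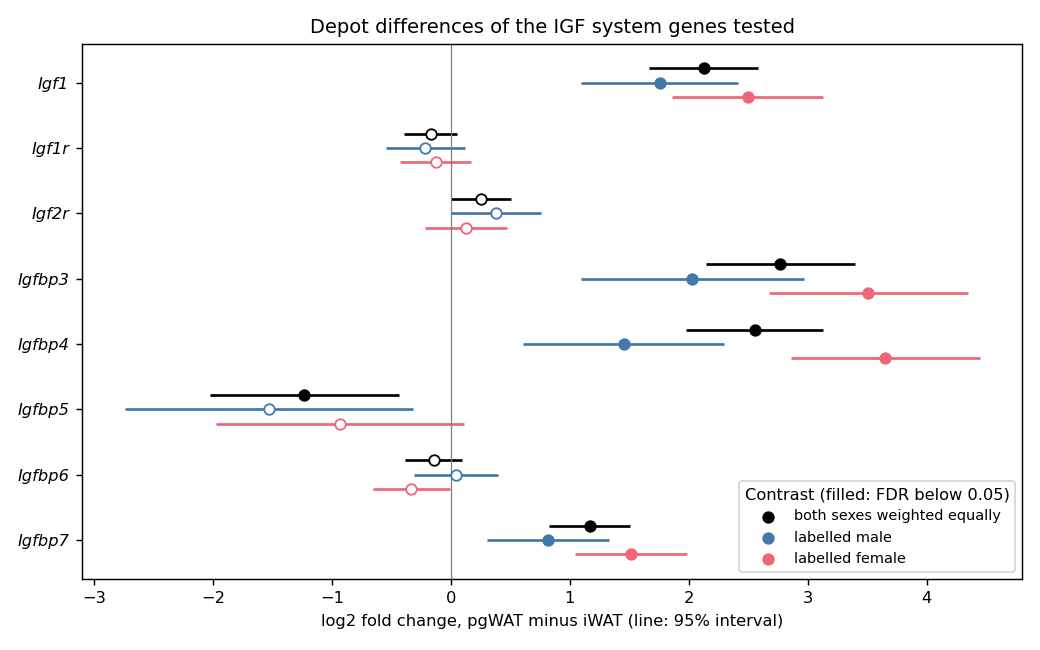
Log2 fold changes between pgWAT and iWAT (x axis) of the 8 genes tested, for both labelled sexes weighted equally, for males and for females, with 95% intervals as lines and filled points where the edgeR FDR was below 0.05. Igf1, Igfbp3, Igfbp4 and Igfbp7 were called in all 3 contrasts, and the intervals of Igf1r spanned 0 in each.

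Whether the depot difference depended on sex was tested as an interaction. None of the 8 genes was called in edgeR (16 genes, 0.181% of all tested, were), in DESeq2 or in limma-voom, and 2 had an unadjusted p under 0.05. The log2 interaction was -2.20 for Igfbp4 (SE 0.59, edgeR FDR 0.140) and -1.48 for Igfbp3 (SE 0.65, edgeR FDR 0.505), where a negative value means a larger depot difference in females. With no filter on low counts Igfbp4 passed (-2.16, edgeR FDR 0.000291). Without the 5 pgWAT libraries that did not fully meet their label, the interaction was -0.41 for Igfbp4 (edgeR FDR 0.786) and -0.75 for Igfbp3 (edgeR FDR 0.741), both closer to 0. For Igfbp5 it was -0.60 with them (edgeR FDR 0.884) and -4.31 without them (edgeR FDR 0.0832).

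Between labelled males and females of iWAT, where all libraries met their labels, none of the 8 genes was called in edgeR, DESeq2 or limma-voom, and 3.22% of all genes were called in edgeR. At an unadjusted p under 0.05 there were 4 genes. Igfbp4, Igf1 and Igfbp7 were higher in males by 0.94 (SE 0.41, edgeR FDR 0.246), 0.63 (SE 0.30, edgeR FDR 0.304) and 0.44 (SE 0.21, edgeR FDR 0.298) on the log2 scale, and Igf2r was lower by a difference of -0.30 (SE 0.15, edgeR FDR 0.306). Their ranges overlapped. Macrophage markers summed to between 1449 and 2513 CPM in iWAT male and to between 650 and 1129 CPM in iWAT female, without overlap, and their part in these values was not tested.

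Igfbp5 averaged 44.6 ± 21.9 CPM in iWAT male and 43.8 ± 33.3 CPM in iWAT female, with a log2 difference of 0.02 (edgeR FDR 0.991). Within well column 7, the one column with several wells of both sexes, it was lower in males by a difference of -1.13 (edgeR FDR 0.0407), while Igfbp3 and Igfbp7 were higher in males by 1.50 (edgeR FDR 0.0471) and 1.01 (edgeR FDR 0.00545).

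Between the labelled sexes of pgWAT none of the 8 genes was called in edgeR, DESeq2 or limma-voom. In edgeR 0.0113% of all genes, a single gene, was called. Igfbp4 and Igfbp3 had an unadjusted p under 0.05, with log2 differences (male minus female) of -1.26 (SE 0.43, edgeR FDR 0.363) and -1.23 (SE 0.45, edgeR FDR 0.416). The difference of Igf1 was -0.11 (SE 0.35, edgeR FDR 0.964). This contrast compares mixed groups, since 5 of its 10 libraries did not fully meet their label.

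**Figure D4:**
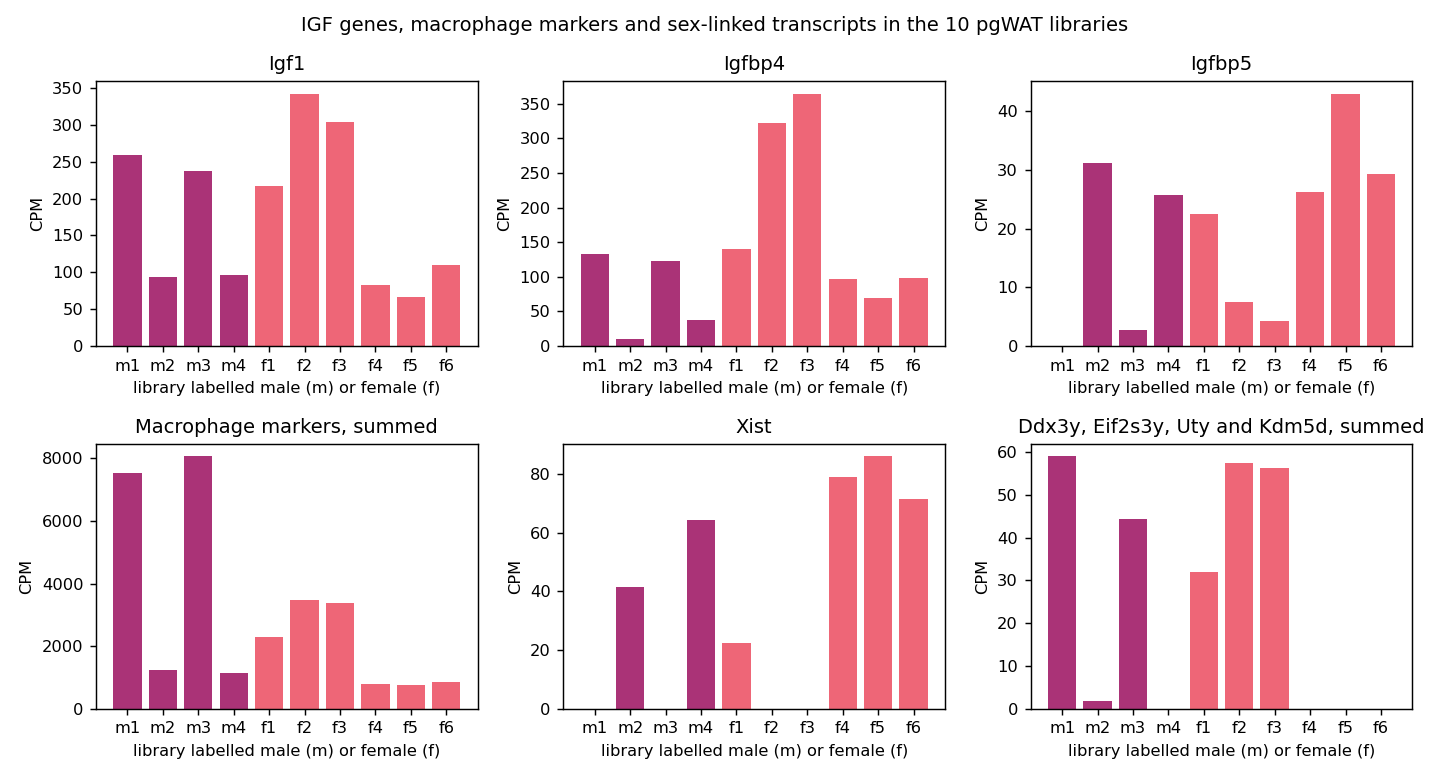
Level (CPM) of Igf1, Igfbp4, Igfbp5, the summed macrophage markers, Xist and the summed Y-linked genes in the 10 pgWAT libraries, numbered m1 to m4 for the label male and f1 to f6 for the label female. Igf1 was 218 CPM or more in m1, m3, f1, f2 and f3, and the same libraries held 32.0 CPM or more of Y-linked transcripts.

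Library by library, the levels in pgWAT varied within both labels. In pgWAT male 1 to 4, Igf1 was 259, 93.3, 237 and 96.4 CPM, where Y-linked transcripts summed to 59.0, 1.73, 44.4 and 0 CPM and macrophage markers to 7527, 1234, 8067 and 1134 CPM. In pgWAT female 1 to 6, Igf1 was 218, 342, 304, 83.0, 66.7 and 111 CPM, where Y-linked transcripts summed to 32.0, 57.5, 56.4, 0, 0 and 0 CPM and macrophage markers to 2305, 3486, 3365, 783, 757 and 843 CPM. High Igf1, Y-linked transcripts and macrophage markers thus fell in the same libraries under either label. Xist was at 0 counts in pgWAT male 1 and 3 and in pgWAT female 2 and 3, and Igfbp5 was at most 7.498 CPM in each of these. The parts of macrophage content, well and animal in these levels were not tested, and the labels were kept in all contrasts.

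Leaving out the 5 libraries in question leaves pgWAT male 1 and 3 against pgWAT female 4, 5 and 6. Igf1 was then higher in males by 1.52 on the log2 scale (edgeR FDR 0.00171). Macrophage markers summed to 7527 and 8067 CPM in these 2 male libraries and to at most 843 CPM in the 3 female ones, and their part in the difference was not tested. Igfbp5 was lower in males by a difference of -4.31 (edgeR FDR 0.0371). Well column 8 held 4 of the 5 libraries, pgWAT male 1 and pgWAT female 4 to 6. There pgWAT male 1 had 0 counts of Igfbp5, and the 3 female wells were at least 6.42-fold higher than a limit of 3 counts in that library allows, a comparison with a single male well.

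Compared per kilobase of the longest annotated transcript, the order of levels in iWAT was Igfbp6 (237 ± 45.2 CPM per kb, n = 19), Igfbp7 (134 ± 50.4), Igf2r (10.3 ± 2.81), Igfbp5 (7.36 ± 4.51), Igf1r (6.65 ± 1.29), Igf1 (5.89 ± 2.32), Igfbp4 (5.64 ± 2.70) and Igfbp3 (5.43 ± 2.91). The 5 genes from Igfbp5 to Igfbp3 lay within their spread of one another. In pgWAT the order was Igfbp7 (300 ± 92.4 CPM per kb, n = 10), Igfbp6 (210 ± 45.1), Igfbp3 (43.9 ± 37.7), Igfbp4 (36.4 ± 30.1), Igf1 (25.7 ± 14.5), Igf2r (12.2 ± 1.78), Igf1r (5.998 ± 0.635) and Igfbp5 (3.20 ± 2.42). Igfbp6 and Igfbp7 thus led both depots by this length. Igf1 stood below both receptors in iWAT and above them in pgWAT, but per kilobase of the median transcript it was below Igf2r in pgWAT as well (132 against 135 CPM per kb). Igf1, Igf2, Igf1r, Igf2r and Igfbp4 have short annotated transcripts beside the longest one, so their place depends on the length used.

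All Igfbp transcripts together came to 503 ± 68.4 CPM in iWAT (range 382 to 608) and 859 ± 179 CPM in pgWAT (range 591 to 1219). The highest iWAT library overlapped the lowest pgWAT library. Igfbp6 made up 52.6% ± 9.20 of this sum in iWAT and 28.7% ± 9.82 in pgWAT. Igfbp3 rose from 2.60% ± 1.30 to 11.7% ± 8.57 of the sum and Igfbp4 from 4.34% ± 2.12 to 14.9% ± 9.75, while Igfbp5 went from 8.74% ± 5.00 to 2.43% ± 1.98. Igfbp7 held 31.7% ± 10.1 in iWAT and 42.2% ± 11.3 in pgWAT. The spread within pgWAT was wide. In the library labelled pgWAT female 2 Igfbp3 and Igfbp4 took 26.9% and 30.9% of the sum, and in pgWAT male 2 Igfbp4 took 1.75%.

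**Figure D5:**
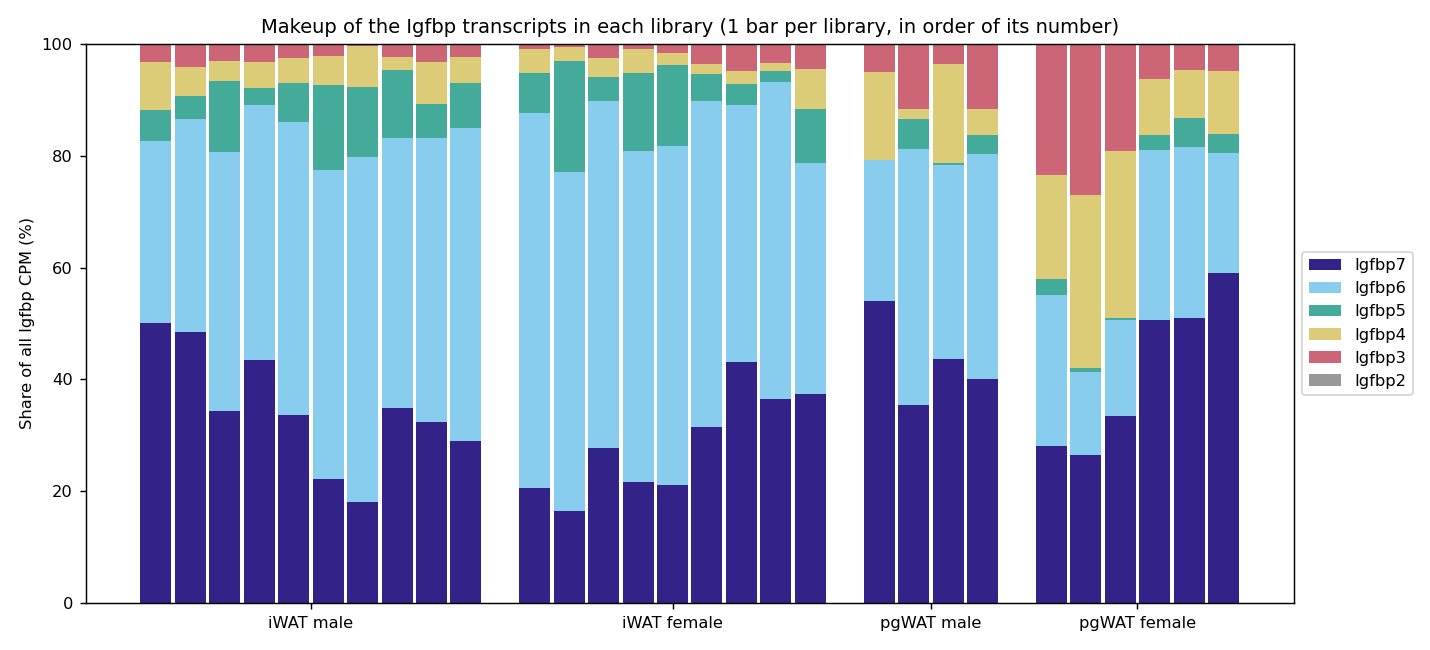
Share (%) of each binding protein gene in the summed CPM of Igfbp2 to Igfbp7, 1 bar per library in the order of its number within each group. Igfbp6 and Igfbp7 together filled most of each bar in iWAT, and Igfbp3 and Igfbp4 took their largest shares in pgWAT female 1 to 3, the 3 libraries from well column 10.

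Genes of the wider pathway, from lists chosen by function, were called between the depots about as often as genes at large. Of 50 tested, 15 were higher and 5 lower in pgWAT, beside the 38.1% called over all genes. Among genes listed under access to IGFs, 7 of 10 tested were higher and 1 lower, where 20.1% of all genes were higher and 17.9% lower. The list as a whole was not tested. Adamts1, a secreted metalloprotease, rose by a log2 fold change of 1.17 (SE 0.16, edgeR FDR 5.21e-07), from 75.1 ± 16.6 to 175 ± 83.0 CPM. It was 243, 335 and 276 CPM in pgWAT female 1 to 3 and 92.7, 99.3 and 111 CPM in pgWAT female 4 to 6. The libraries labelled pgWAT male held between 127 and 186 CPM, and the highest iWAT library held 106 CPM. Tmem219, a cell surface receptor of IGFBP3, rose by 0.90 (SE 0.18, edgeR FDR 0.000131), Stc2, an inhibitor of the proteases that cut IGFBP4, by 0.88 (SE 0.29, edgeR FDR 0.0151) and Htra1, a serine protease that cleaves IGF binding proteins, by 0.86 (SE 0.16, edgeR FDR 4.35e-05). M6pr, the smaller mannose 6-phosphate receptor, rose by 0.47, and Mmp2, a gelatinase, fell by 0.50 on the log2 scale (edgeR FDR 0.0138). Pappa, the protease known for cutting IGFBP4, reached at most 4.52 CPM in any library and was not tested.

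In the chain from the receptor inwards, 6 of 28 genes were higher and none lower, where 20.1% of all genes were higher and 17.9% lower. They included Foxo1 (log2 fold change 1.32, SE 0.22, edgeR FDR 1.20e-05) and Foxo3 (1.01, SE 0.25, edgeR FDR 0.00143), transcription factors held back by this pathway, the kinase gene Map2k1 (1.24, SE 0.17, edgeR FDR 7.73e-07) and the phosphoinositide 3-kinase subunits Pik3r1 (0.64) and Pik3ca (0.57). Map2k1 rose from 50.2 ± 21.7 to 118 ± 38.5 CPM. The other 22 did not pass the test.

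Of 5 genes of the growth hormone axis tested, Ghr, the growth hormone receptor, rose by 1.55 (SE 0.25, edgeR FDR 6.65e-06) and Socs2, a feedback inhibitor, by 0.66 (SE 0.26, edgeR FDR 0.0424). Ghr was 81.6, 166, 59.7 and 155 CPM in pgWAT male 1 to 4 and 64.0, 29.99, 41.2, 144, 193 and 117 CPM in pgWAT female 1 to 6. Within pgWAT its highest libraries were therefore not those with the most Igf1.

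Of 6 imprinted genes tested, 3 were lower in pgWAT and none higher, where 17.9% of all genes were lower and 20.1% higher. They were H19, Meg3 (log2 fold change -0.77, SE 0.20, edgeR FDR 0.00303) and Dlk1, an inhibitor of adipogenesis. Dlk1 was between 8.44 and 82.2 CPM in all 19 iWAT libraries, and in pgWAT it was at 0 counts in 8 libraries and at most 4.17 CPM in the others. Igf2bp3, which binds Igf2 mRNA, fell by 2.28 (SE 0.41, edgeR FDR 3.98e-05), from 16.2 ± 9.11 to 2.99 ± 3.25 CPM, and Igf2bp2 was 53.3 ± 17.2 CPM in iWAT and 63.6 ± 19.2 CPM in pgWAT and did not pass the test.

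The genes whose levels were most like those of each member were sought by Pearson's r of log2 CPM over the 29 libraries among 5291 genes of average log2 CPM of at least 5, as a description. The values share the libraries, their depth and the depot difference. For Igf1 they were Grn (r = 0.90) and Plekhm1 (0.90), for Igfbp3 Vegfd (0.91) and Il6st (0.91), for Igfbp4 Hp (0.88) and Tmem176b (0.86), and for Igfbp7 Dag1 (0.93) and Cst3 (0.91). For Igfbp5 they were Spon2 (0.78) and Hoxc10 (0.76). The other 3 genes had Nipsnap3b (0.81) and Zdhhc4 (0.79) for Igfbp6, Pgm1 (0.76) and Rarres2 (0.75) for Igf2r, and Tmem39a (0.61) and Nudt9 (0.59) for Igf1r. After the group means were taken out, Vegfd still led for Igfbp3 (0.75) and Pgm1 for Igf2r (0.75). The leading gene was another one for the other 6, with Mgst1 (0.85) for Igf1, Tyrobp (0.83) for Igfbp4 and Mfge8 (0.81) for Igfbp5.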

How the data were processed

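Expected counts for each gene were deposited, which the authors made from Smart-seq3 reads with and without molecular identifiers by adapter trimming with NGmerge, Salmon 1.9.0 and a Gencode transcriptome on GRCm39, leaving out libraries with few detected genes. Of the nonzero values 85.1% were whole numbers, and all were rounded. Symbols came from Gencode vM21 on GRCm38 by Ensembl identifier (52029 of 56953 matched), which also gave transcript lengths and shared 31-base words. Genes were tested with edgeR 4.0.16 in R 4.3.3 (TMM, filterByExpr, quasi-likelihood F test, two-sided, Benjamini-Hochberg over 8853 genes, called below 0.05) with 1 mean per group over 29 libraries. DESeq2 1.42.0, limma-voom (limma 3.58.1), other scalings and filters, well column and left-out libraries were alternatives. On simulated counts the test was checked first. The members, lists and tests were chosen with earlier results of these data known. All 10 members are named, and of the pathway lists the called genes among the 5 largest changes in each direction. Genes outside these lists named by likeness followed the rule given beside them. Groups came from the labels, and reads may repeat molecules. The interval of the pooled Igf2 ratio covers counting error only, while the intervals of the edgeR estimates rest on the spread between wells.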

Additional observations from a re-analysis of the deposited data

Results flagged for a closer look

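Over the 32 combinations of a tested gene and a group, 2 held a library far from the rest of its group, and chance alone marks about 1 in 20 such groups. Igfbp6 was 137 CPM in iWAT male 1, where the next lowest of the 10 libraries had 219 CPM. Igfbp6 was also low, at 158 CPM, in iWAT female 9, where the next lowest of the 9 libraries had 258 CPM. Epithelial markers in iWAT female 9 summed to 1831 CPM, the highest of the 29 libraries, and their part in the low value was not tested. Without iWAT female 9, Igfbp6 was called lower in pgWAT female than in iWAT female (log2 fold change -0.40, edgeR FDR 0.0440).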

How the results depend on the processing

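Between the depots, 5 to 5 of the 8 genes were called with each single library left out, and 16 to 24 genes of the pathway lists. All 232 estimates with 1 library left out kept their direction and side of the threshold there, as did 55 of 56 under the other settings, the exception being Igfbp5 with well column as a factor. With 1 library left out, 2 to 5 genes were called between the male groups and 4 to 5 between the female groups. Without pgWAT male 1, 2 were, since Igfbp4 (1.05, edgeR FDR 0.0971) and Igfbp7 (0.59, edgeR FDR 0.117) were lost. Igfbp4 was also lost there without pgWAT male 3 (1.098) and in limma-voom (0.94), and Igfbp7 without pgWAT male 4 (0.80). Igfbp5 was called lower there without pgWAT male 2 (-2.01) or iWAT male 4 (-1.64). In the interaction and both sex contrasts 0 to 0 were called with 1 library left out.

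With no filter on low counts 1 gene, Igfbp4, was called in the interaction and in each sex contrast, and Igfbp5 was called lower in pgWAT within each sex. In iWAT, male minus female, 1 gene was called with well column as a factor (Igfbp7, 0.75), 1 without the 5 pgWAT libraries that did not fully meet their label (Igfbp4, 0.93) and 3 in well column 7 alone. In pgWAT, male minus female, 1 was called with well column as a factor (Igfbp5), 2 without those 5 libraries (Igf1 and Igfbp5) and 2 in well column 8 alone (Igf1 and Igfbp5). The last comparison was chosen after the data were seen and has 1 male well, which is assumed to vary like the other groups, so its calls carry no replicate check. Shares of all genes called are given for the main fit only, so the counts under other settings and with libraries left out have no such share beside them. The cause of these changes was not tested.

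Estimates that changed sign, nearly all of them not called in either fit, were these. In pgWAT, male minus female, Igf1 became 1.52 without the 5 libraries, 1.63 in column 8 alone, 0.82 with well column as a factor and 0.034 in limma-voom. Igfbp4 became 0.52 and 0.62, and Igfbp6 -0.14 and -0.20, without the 5 libraries and in column 8. With well column as a factor Igf1r became 0.025, Igf2r 0.26, Igfbp3 0.092 and Igfbp7 0.071. In iWAT, male minus female, Igfbp5 became -1.13 in column 7, -0.84 with well column as a factor, -0.014 with library totals alone and -0.0066 with no filter. Igf1r became 0.020 and Igf2r 0.074 in column 7, and Igf1r 0.012 with the factor. Between the female groups Igfbp5 became 0.65 with the factor and 0.94 in column 8, and Igf2r -0.12 and -0.25. Between the male groups Igfbp4 became -0.063 in column 9 and Igfbp6 -0.18 without the 5 libraries. In the interaction Igf1 became 0.013 with the factor and 0.91 without the 5 libraries, Igf1r 0.013 with the factor and Igfbp6 -0.014 without the 5 libraries. With 1 library left out the ranges across 0 were -0.38 to 0.15 for Igf1 and -0.13 to 0.032 for Igf2r in pgWAT, -0.13 to 0.30 for Igfbp5 in iWAT and -0.089 to 0.12 for Igfbp6 between the male groups.

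Per kilobase of the median rather than the longest transcript, the levels in iWAT and pgWAT became 30.4 and 132 CPM per kb for Igf1, 3.91 and 0.624 for Igf2, 38.0 and 34.2 for Igf1r, 114 and 135 for Igf2r, and 28.3 and 183 for Igfbp4. No paired analysis was possible because the labels give no replicate, experiment or animal number. Depth limits what can be said of Igf2 and Igfbp2, and the wells that did not meet their label limit every contrast within or between the labelled sexes of pgWAT.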
